A study of Mus musculus with 8 samples.

Results

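Genes of the oligodendrocyte lineage were followed in brain endothelial cell (EC) preparations of 4 mutant and 4 wild-type pups. They were taken by name and comprised 9 of the 49315 genes in the count files. Of these, 5 encode myelin components (*Mbp*, *Mog*, *Mag*, *Mobp* and *Cnp*) and 4 encode transcription factors of the lineage (*Olig1*, *Olig2*, *Sox10* and *Nkx2-2*). Mutant pups were R26GT-Map2k1-GFP/+; Tg-Cdh5CreER+/-. In these pups Cre, driven by the promoter of the endothelial gene *Cdh5*, releases a *Map2k1* p.K57N cDNA and GFP from the *Rosa* locus, where a CAG promoter drives them. Recombination reached only some of the ECs, so each mutant library mixes mutant and wild-type cells. The labels give the controls as Wild type, and both parental lines were kept by backcrossing to C57BL/6J. All pups received tamoxifen on postnatal day 1 and their brains were collected on day 9. ECs were pulled from digested whole brain with magnetic beads carrying an antibody to CD31, an EC surface protein, and poly(A) RNA of each pup gave 1 library.

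Oligodendrocytes arise from progenitor cells that divide and migrate through the brain in response to PDGF-A, the ligand of PDGFRA. *Olig1* and *Olig2*, neighbouring genes for basic helix-loop-helix factors, *Sox10*, an HMG-box factor, and *Nkx2-2*, a homeodomain factor, act in specification and in the switch to differentiation. *Olig2* and *Sox10* stay on from the progenitor to the mature cell, so the 4 factors together do not mark the progenitor alone. Differentiated cells wrap axons in myelin, whose compact layers hold the proteins of *Mbp* and *Mobp*, whose inner surface holds the adhesion protein of *Mag* and whose outer surface holds that of *Mog*. *Cnp* encodes an enzyme of the uncompacted myelin channels. In the mouse brain myelination is under way in the second postnatal week, when progenitors, newly formed and myelinating cells are present together.

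SOX10 is known to act on myelin genes through short SOX sites. Stretches upstream of RefSeq gene starts (GRCm38.p6) were found for 6 of the 9 genes, *Mag*, *Mobp*, *Cnp*, *Mog*, *Olig2* and *Nkx2-2*. *Mbp*, *Olig1* and *Sox10* were not matched. The stretches below are shown because they hold the SOX letters ACAAAG or their reverse complement CTTTGT, written in capitals. Each runs 5′ to 3′ on the strand of the gene, from base 250 to base 51 before the start.
*Mag* (chr7:30914973-30915172, minus strand): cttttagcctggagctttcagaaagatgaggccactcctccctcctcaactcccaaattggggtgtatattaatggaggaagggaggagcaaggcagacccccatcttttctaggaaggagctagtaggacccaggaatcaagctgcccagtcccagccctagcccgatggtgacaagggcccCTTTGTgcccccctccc
*Mobp* (chr9:120149492-120149691, plus strand): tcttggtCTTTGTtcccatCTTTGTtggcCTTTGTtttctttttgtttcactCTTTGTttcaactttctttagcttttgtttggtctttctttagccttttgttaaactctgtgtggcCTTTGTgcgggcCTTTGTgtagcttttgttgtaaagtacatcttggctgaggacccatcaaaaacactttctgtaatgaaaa
*Cnp* (chr11:100574689-100574888, plus strand): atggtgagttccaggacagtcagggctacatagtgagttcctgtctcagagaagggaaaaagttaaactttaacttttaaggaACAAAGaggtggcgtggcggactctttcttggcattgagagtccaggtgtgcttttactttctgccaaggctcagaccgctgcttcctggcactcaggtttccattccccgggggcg

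The 250 bases before each start were searched on both strands for 8 strings of letters. The 6 genes had 8 such stretches, and a gene was counted if any of its stretches matched, whereas the percentages are per stretch. ACAAAG was found upstream of 3 of the 6 genes, *Mag*, *Mobp* and *Cnp*, and in 16.5% of all 32851 stretches of that length in the table. *Mobp* held 6 copies within the 200 bases shown, and *Mag* and *Cnp* 1 each. The SOX strings ACAATG and AACAAT, which can overlap, were found upstream of *Olig2* and in 10.7% and 9.42% of all stretches. The NK-2 strings CAAGTG and AAGTGG, which overlap in CAAGTGG, were each found upstream of *Mag* and *Nkx2-2* and in 11.6% and 14.1% of all stretches. Of the E-box strings, CAGATG was found upstream of *Nkx2-2* and in 14.4% of all stretches, and neither CAGCTG (13.0%) nor CATATG (3.46%) was found upstream of the 6 genes. A match is a description of the letters.

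Between 24833373 and 34196955 reads were counted on genes in mutant libraries and between 28146348 and 32208421 in wild-type libraries. *Map2k1*, the expressed gene, lay between 427.6 and 631.2 CPM (read counts scaled to library size) in mutant and between 50.7 and 59.4 in wild-type libraries, so the labels held for all 8. Levels are CPM after TMM scaling of library sizes unless stated otherwise. The quasi-likelihood test of edgeR was run over 16887 genes, and a gene was called when its Benjamini-Hochberg adjusted p was under 0.05 and its absolute log2 fold change over 1. The 10 endothelial markers summed to between 12248 and 14840 CPM in mutant and between 11524 and 13969 in wild-type libraries, against 38.3 to 57.8 and 86.6 to 237.1 for the 5 myelin genes. The preparations were therefore endothelial by their markers, with oligodendrocyte transcripts as a small part. Per the methods, wild-type pups were picked from the litters of the mutant pups, but the labels do not tie a library to a litter.

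All 9 genes fell in mutant preparations, and for each of them the 4 mutant libraries lay below the 4 wild-type libraries. For comparison, 8.05% of all genes tested were called lower and 21.9% had all mutant below all wild-type libraries, while 20.6% had all mutant above them. By adjusted p alone, 22.9% of all genes tested were lower and 21.5% higher. Each of the 9 genes passed the filter on low counts, *Nkx2-2* through its wild-type counts alone. Mutant libraries alone would not have carried *Olig2* or *Sox10* either, with 3 counts in mutant library 3 and 11 in mutant library 4. Mutant means were between 18.3% and 49.0% of the wild-type mean for the myelin genes and between 7.81% and 17.0% for the transcription factors. In bulk RNA, fewer cells of a type and less RNA per cell cannot be told apart.

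**Figure D1:**
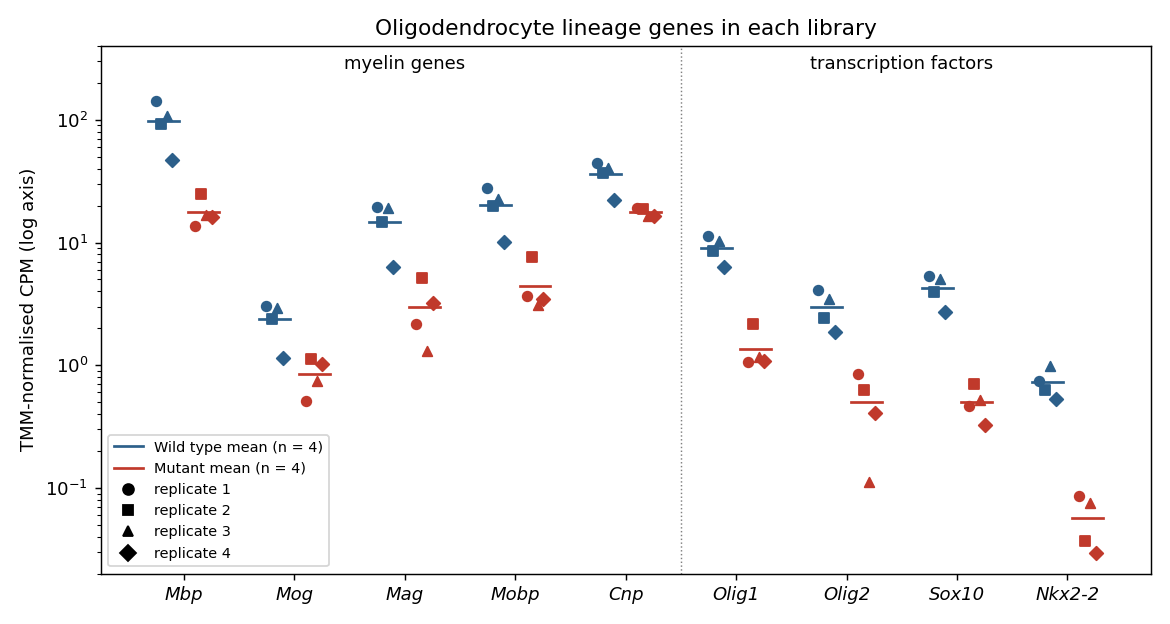
TMM-normalised CPM on a log axis of 5 myelin and 4 transcription factor genes in each of 4 wild-type and 4 mutant libraries, with the replicate number as the marker shape and the mean of each group as a bar. Wild type replicate 4 is the lowest wild-type library for all 9 genes, and no mutant library reaches a wild-type library of the same gene.

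*Mbp*, on chromosome 18 of GRCm38 from 82475146 to 82585637, encodes myelin basic protein, the main protein that holds the cytoplasmic faces of myelin together. Its level was 142.9, 92.8, 108.0 and 47.0 CPM in wild-type libraries 1 to 4 and 13.6, 25.0, 16.8 and 16.0 in mutant libraries 1 to 4. The lowest wild-type library was still above the highest mutant library. *Mbp* fell 5.47-fold (log2 fold change -2.45, standard error 0.31, Benjamini-Hochberg adjusted p = 1.58e-04, edgeR test). *Mobp*, on chromosome 9 from 120149707 to 120181484, encodes another protein of compact myelin. It had 27.8, 19.9, 22.7 and 10.02 CPM in wild-type libraries 1 to 4 and 3.67, 7.60, 3.10 and 3.46 in mutant libraries. It fell 4.51-fold (log2 fold change -2.17, standard error 0.35, adjusted p = 6.82e-04, same edgeR test). Mutant library 2 was the highest mutant library for both genes.

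*Mag*, on chromosome 7 from 30899176 to 30914873, encodes myelin-associated glycoprotein, which faces the axon. Wild-type libraries 1 to 4 had 19.3, 14.6, 19.0 and 6.29 CPM and mutant libraries 2.18, 5.18, 1.31 and 3.23. The gap between the groups was narrow, from 5.18 to 6.29 CPM. *Mag* fell 4.96-fold (log2 fold change -2.31, standard error 0.43, adjusted p = 0.00158, same edgeR test). *Mog*, on chromosome 17 from 37010743 to 37023398, encodes a glycoprotein of the outermost myelin surface that only central myelin holds. It had 3.04, 2.37, 2.91 and 1.14 CPM in wild-type and 0.512, 1.12, 0.747 and 1.03 in mutant libraries, so wild type replicate 4 and mutant replicate 2 were almost level. It fell 2.76-fold (log2 fold change -1.46, standard error 0.35, adjusted p = 0.00626, same edgeR test).

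*Cnp*, on chromosome 11 from 100574904 to 100591729, changed least of the 9 genes. Wild-type libraries 1 to 4 had 44.1, 37.1, 40.5 and 22.2 CPM and mutant libraries 19.0, 18.9, 16.3 and 16.3. Its mutant libraries were the most even of any of the 9 genes, with a coefficient of variation of 8.55%. *Cnp* fell 2.04-fold (log2 fold change -1.03, standard error 0.18, adjusted p = 0.00122, same edgeR test), close to the limit of 1. With the label prefix as a block the value was -0.99, and without wild type replicate 1 it was -0.90, both below that limit in size with an adjusted p still under 0.05. *Cnp* shares 154 exon bases with *Dnajc7* on the other strand, which had between 2622 and 3574 counts per library, and reads of both genes cannot be told apart there, since the use of strand in counting is not stated.

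The fitted values of the 4 factors were lower than those of the myelin genes. *Olig1*, on chromosome 16 from 91269772 to 91271933, had 11.3, 8.49, 10.2 and 6.29 CPM in wild-type libraries 1 to 4 and 1.07, 2.16, 1.16 and 1.09 in mutant libraries. Mutant library 2 stood above the other 3, which were almost equal. *Olig1* fell 6.63-fold (log2 fold change -2.73, standard error 0.27, adjusted p = 4.14e-05, same edgeR test). *Olig2*, on the same chromosome from 91225550 to 91228677, had 4.07, 2.44, 3.50 and 1.85 CPM in wild-type and 0.853, 0.633, 0.112 and 0.411 in mutant libraries. It had the widest spread between mutant libraries, since mutant library 3 held 3 counts and mutant library 1 held 20. It fell 5.96-fold (log2 fold change -2.57, standard error 0.45, adjusted p = 0.00117, same edgeR test).

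*Sox10*, on chromosome 15 from 79154913 to 79164490, had 5.31, 3.96, 5.07 and 2.74 CPM in wild-type and 0.469, 0.708, 0.523 and 0.323 in mutant libraries. The lowest wild-type library was far above every mutant library. *Sox10* fell 8.47-fold (log2 fold change -3.08, standard error 0.30, adjusted p = 3.62e-05, same edgeR test). *Nkx2-2*, on chromosome 2 from 147177546 to 147194243, was the rarest of the 9 transcripts, with 24, 20, 34 and 15 counts in wild-type libraries and 2, 1, 2 and 1 in mutant libraries. The 6 mutant against 93 wild-type counts put the mutant level at 7.33% of the wild-type level, with an exact 95% interval from 2.62% to 16.6% that covers counting error only. The edgeR fit gave a log2 fold change of -3.64 (adjusted p = 1.19e-04, standard error 0.43), a value that depends on the prior count at so few reads. *Nkx2-2* shares 278 exon bases with the antisense RNA *Nkx2-2os*, which had at most 2 counts in any library.

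Per length, in CPM per kilobase of counted exon (RPKM), the wild-type order was *Mbp* (11.6 ± 4.73 RPKM, SD, n = 4), *Cnp* (9.88 ± 2.65), *Olig1* (4.19 ± 1.01), *Mag* (3.63 ± 1.49), *Mobp* (2.93 ± 1.09), *Sox10* (1.57 ± 0.43), *Mog* (1.39 ± 0.51), *Olig2* (1.22 ± 0.41) and *Nkx2-2* (0.252 ± 0.068). The ranges over wild-type libraries overlapped for all neighbours in that order except *Cnp* and *Olig1*, and *Olig2* and *Nkx2-2*. In mutant libraries *Cnp* was the highest of the 9 (4.84 ± 0.41 RPKM) and *Mbp* followed (2.13 ± 0.59). *Mbp* was above *Cnp* in 3 of 4 wild-type libraries and in 0 of 4 mutant libraries. *Olig1* stood above *Mag* in 4 of 4 wild-type libraries and in 1 of 4 mutant libraries.

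The myelin genes and the factors were then compared within each library. The mean log2 CPM of the 5 myelin genes minus that of the 4 factors was 2.75, 2.77, 2.58 and 2.17 in wild-type libraries 1 to 4 and 2.95, 3.64, 3.43 and 3.74 in mutant libraries. The lowest mutant value exceeded the highest wild-type value of this difference, but without *Cnp*, the myelin gene that changed least, the groups overlapped, with 2.40 to 3.32 in mutant and 1.87 to 2.55 in wild-type libraries and a shift of 0.66. Its mean was 2.57 ± 0.28 (SD, n = 4) in wild-type and 3.44 ± 0.35 in mutant libraries, a shift of 0.87 on the log2 scale in which the factors had fallen further than the myelin genes. The mean of the myelin genes moved by -1.84 and that of the factors by -2.72 on the log2 scale. No test is attached to this shift, because the 9 genes were chosen with results of these data known. By fitted log2 fold change the 4 factors, from -3.64 to -2.57, all lay below the 5 myelin genes, from -2.45 to -1.03. The nearest pair, *Olig2* and *Mbp*, was closer than their standard errors, and without mutant replicate 3 their order turned (*Olig2* -2.24, *Mbp* -2.42). The larger fall is that of these 4 factors and not of progenitor genes as a list. The 14 progenitor genes tested, given below, had a median log2 fold change of -2.04, against -2.17 for the 5 myelin genes.

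**Figure D2:**
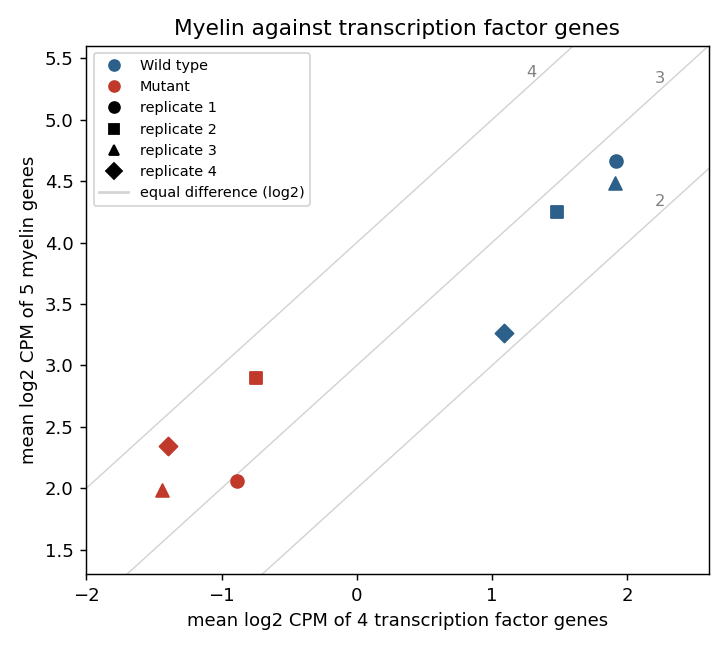
Mean log2 CPM of the 5 myelin genes against that of the 4 transcription factor genes in each library, with grey lines of equal difference at 2, 3 and 4. Wild-type libraries lie at differences from 2.17 to 2.77 and mutant libraries, lower on both axes, from 2.95 to 3.74.

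Wild type replicate 4 was the lowest wild-type library for 9 of 9 genes, and wild type replicate 1 the highest for 8 of 9. Relative to the wild-type mean, wild type replicate 4 averaged 50.04% over the myelin genes and 67.3% over the factors. Mutant replicate 2 was the highest mutant library for 6 of 9 genes, at 39.6% over the myelin genes and 16.7% over the factors. Mutant replicates 1, 3 and 4 were at 24.3%, 23.7% and 28.8% over the myelin genes and at 15.8%, 9.77% and 9.36% over the factors. After each group's mean was subtracted, Pearson's r between 2 myelin genes over the 8 libraries lay between 0.73 and 0.93 (median 0.83 over 10 pairs). Between 2 factors it lay between 0.13 and 0.88 (median 0.40 over 6 pairs), and between a myelin gene and a factor between 0.02 and 0.96 (median 0.61 over 20 pairs). The highest of these values, 0.96, was that of *Mobp* and *Olig1*. These values describe libraries that share their depth, and the factors had few counts.

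The sample labels carry 3 prefixes, of replicates 1 and 2, of replicate 3 and of replicate 4, each with as many mutant as wild-type libraries. What a prefix stands for is not given in the labels. All 27 ratios of mutant over wild type, for 9 genes in 3 prefixes, were below 1. The log2 ratio of the factors lay between -3.49 and -2.13 in the prefix of replicates 1 and 2, between -4.96 and -3.14 in that of replicate 3 and between -4.18 and -2.17 in that of replicate 4. For the myelin genes it lay between -2.61 and -1.10, between -3.86 and -1.31, and between -1.55 and -0.15. In the prefix of replicate 4, *Mog* was almost level (-0.15), *Cnp* was at -0.44 and *Mag* at -0.96, while *Sox10* was at -3.08. The shift between the classes was 0.54, 0.85 and 1.57 on the log2 scale in the 3 prefixes. A prefix with 1 library per group gives no test.

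**Figure D3:**
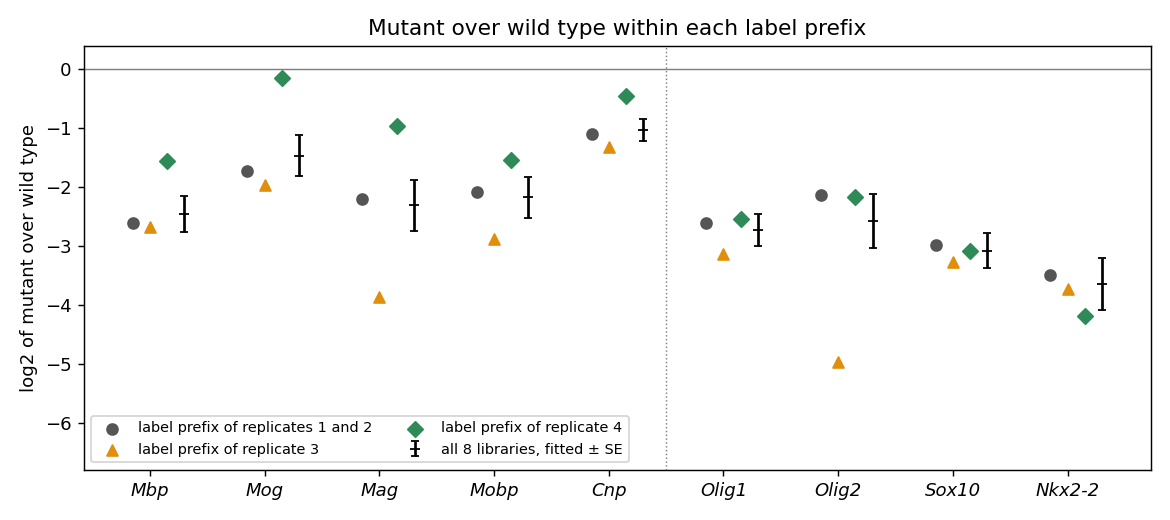
Log2 of mutant over wild-type CPM of the 9 genes within each of 3 label prefixes, beside the fitted log2 fold change over all 8 libraries with its standard error. All points lie below 0, and the prefix of replicate 4 is nearest to 0 for the 5 myelin genes, down to -0.15 for *Mog*.

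Other genes of the lineage were read from lists by stage, of which 1 of 55 genes (*9630013A20Rik*) was not matched. Of 15 progenitor genes 14 were tested, and 12 fell and 0 rose (median log2 fold change -2.04, against -0.02 over all genes tested). *Gpr17*, a receptor of late progenitors, had 23.7, 17.95, 25.0 and 12.1 CPM in wild-type libraries 1 to 4 and 1.96, 4.17, 1.49 and 2.55 in mutant libraries. It fell 7.71-fold (log2 fold change -2.95, standard error 0.32, adjusted p = 6.98e-05, same edgeR test). *C1ql1* (log2 fold change -2.92), the sialidase gene *Neu4* (-2.70), *Pcdh15* (-2.47) and the matrix gene *Tnr* (-2.44) followed. *C1ql1* and *Neu4* had at most 12 and 9 counts in a mutant library, and 0 in mutant library 1. Mutant libraries alone would not have carried *C1ql1*, *Neu4* or *Pcdh15* through the filter on low counts. Genes that enter the test through wild-type counts favour falls among the genes tested. Without mutant replicate 2 *Neu4* was at -3.48. *Pdgfra*, the receptor for PDGF-A, which fibroblasts express too, had 16.6, 11.1, 19.5 and 14.1 CPM in wild-type and 7.12, 7.90, 7.62 and 7.27 in mutant libraries, and was named after its values were seen. It fell 2.05-fold (log2 fold change -1.03, adjusted p = 5.86e-04, same edgeR test). *Cspg4*, a proteoglycan gene that pericytes share, had a log2 fold change of 0.04 (adjusted p = 0.903, same edgeR test), with libraries of both groups overlapping, and its sign turned without TMM scaling (-0.01).

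Of 14 genes of newly formed oligodendrocytes 11 were tested, and 3 fell and 0 rose (median log2 fold change -0.28). *Bcas1* had 11.9, 7.60, 10.8 and 6.25 CPM in wild-type and 0.896, 2.53, 1.16 and 1.29 in mutant libraries, and fell 6.20-fold (log2 fold change -2.63, adjusted p = 1.44e-04, same edgeR test). *Mycl* (log2 fold change -2.55) and *Myrf* (-1.63), the factor that turns on myelin genes, also fell. Mutant replicate 2 (2.31 CPM) was above wild type replicate 4 (2.17 CPM) for *Myrf*. *Fyn* and *Sirt2*, the most abundant genes of the list per length, had log2 fold changes of 0.63 and -0.28, too small to be called.

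Of 25 other genes of myelin and mature oligodendrocytes 20 were tested, and 10 fell and 1 rose (median log2 fold change -1.37), where 5.90% of all genes tested were called higher. *Ugt8a*, which encodes an enzyme that makes the galactolipids of myelin, had 8.88, 6.59, 9.20 and 2.74 CPM in wild-type and 0.981, 1.86, 0.597 and 1.06 in mutant libraries. It fell 6.08-fold (log2 fold change -2.60, standard error 0.42, adjusted p = 6.71e-04, same edgeR test). The lipid gene *Fa2h* (log2 fold change -2.66) and the receptor gene *Gpr37* (-2.36) also fell, and *Fa2h* was at -3.38 without mutant replicate 2. Mutant libraries alone would not have carried *Fa2h* or *Gpr37* through the filter on low counts. *Cntn2* had the lowest value (-3.87, standard error 1.05), but its wild-type libraries ran from 0.533 to 28.8 CPM and overlapped mutant libraries, and neurons express it too. Without wild type replicate 3 it was at -3.06. *Trf*, the transferrin gene, rose (log2 fold change 1.74, adjusted p = 1.98e-05, same edgeR test), and was named after its values were seen. *Car2* and *Apod*, the most abundant genes of the list per length, had log2 fold changes of 0.58 and -0.98 and were not called. *Apod* crossed the limit without TMM scaling (-1.03).

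Over these 3 lists, 25 of 45 genes tested fell and 1 rose. Some of the 25 passed the filter on low counts only with their wild-type counts, which favours falls in this count. Of the 8 genes with a mean of 10 RPKM or more, a limit chosen after the values were seen, none was called lower and *Trf* was called higher. By adjusted p alone 4 of the 8 were lower, *Apod* (log2 fold change -0.98), *Rras2* (-0.94), *Mal* (-0.67) and *Sirt2* (-0.28), and 3 were higher, *Trf*, *Fyn* and *Car2*. *Apod* and *Rras2* were thus close to the limit of 1.

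**Figure D4:**
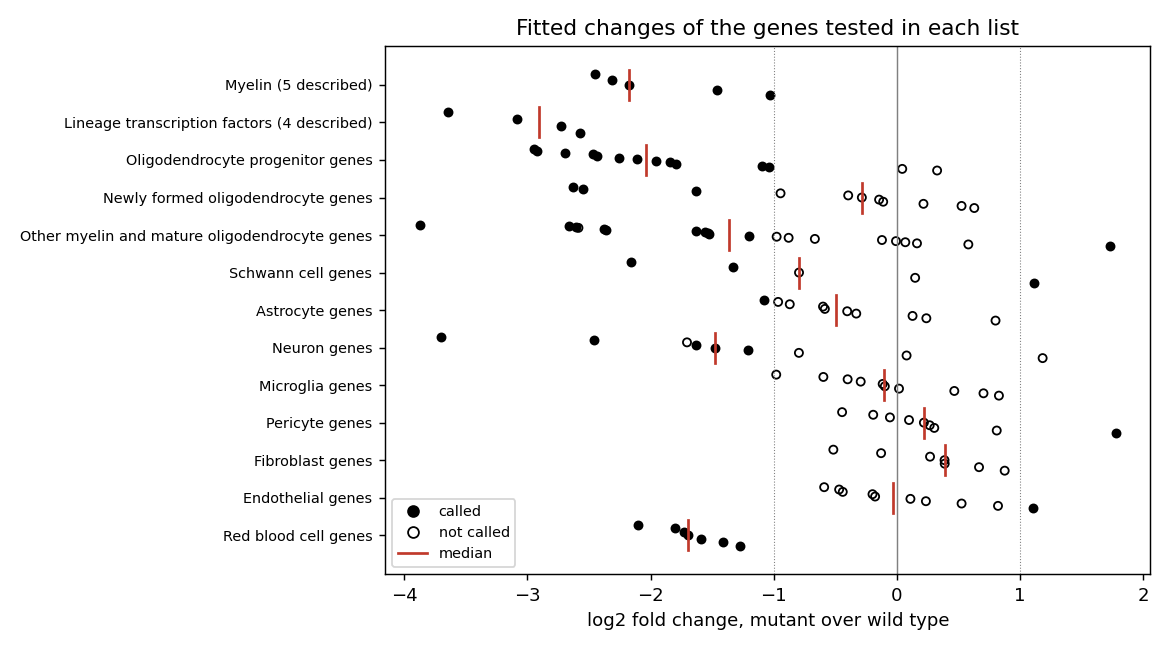
Fitted log2 fold change, mutant over wild type, of every gene tested in 13 lists, with filled points for called genes, open points for others, a red bar at the median and dotted lines at -1 and 1. The 9 genes described and 12 of 14 progenitor genes lie left of -1, as do 7 of 7 red blood cell genes, while no endothelial, pericyte, fibroblast or microglia gene does.

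Markers of other cells that a bead isolation can carry over were read in the same fit. Of 9 neuron genes tested 5 fell and 0 rose, and the summed level of the 12 in the files ran from 42.6 to 63.5 CPM in mutant and from 62.0 to 112.4 in wild-type libraries. *Stmn2* (log2 fold change -1.20) was among those that fell and *Nrgn* (0.08) was not. *Snap25* and *Neurod1*, named after their values were seen, were also called lower, but their groups overlapped. *Snap25* reached 1.61 CPM in a mutant library, against a lowest wild-type value of 1.01. *Neurod1* reached 0.968 CPM in a mutant library and ran from 0.213 to 16.1 in wild-type libraries. *Rbfox3*, a gene of neuronal nuclei named after its values were seen, had a log2 fold change of 1.19 (adjusted p = 0.0514, same edgeR test). All 7 red blood cell genes fell, *Hba-a1* by 1.80 and *Hbb-bs* by 1.69 on the log2 scale, and their sum ran from 89.5 to 287.8 CPM in mutant and from 536.0 to 929.4 in wild-type libraries. Of 10 microglia genes 0 were called, with sums from 143.0 to 544.5 CPM in mutant and from 175.5 to 663.5 in wild-type libraries, and *C1qa* at a log2 fold change of 0.83, which was 1.49 and called without wild type replicate 3. Of 9 pericyte genes 0 fell and 1 rose, with sums from 802.3 to 1280 and from 697.4 to 1295 CPM and *Rgs5* and *Vtn* at -0.44 and -0.06. Of 7 fibroblast genes tested 0 were called, with sums from 1136 to 1498 and from 1009 to 1356 CPM and *Col1a1* and *Col1a2* at 0.39 and 0.27.

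Of 10 astrocyte genes 1 fell and 0 rose (median log2 fold change -0.49). Their sum was higher in mutant libraries, from 650.4 to 763.6 CPM against 400.8 to 476.0, but *Gja1*, a connexin gene, made up most of it. *Gja1* alone had 586.1 to 731.1 CPM in mutant and 330.6 to 399.5 in wild-type libraries (log2 fold change 0.80). The sum therefore mainly reads *Gja1* and not the list as a whole. *Fgfr3* was at -0.33. The gene that fell was *Slc4a4* (log2 fold change -1.08, adjusted p = 0.00102, same edgeR test), named after its values were seen. By adjusted p alone, 2 of the 10 astrocyte genes were lower and 1 was higher. Of 10 endothelial genes 0 fell and 1, *Cdh5* (1.11), rose, and *Cldn5* was at -0.47 (adjusted p = 0.00970, same edgeR test). By adjusted p alone, 3 of the 10 were lower and 3 were higher. Every gene on these lists had counts in at least 1 library. The fall of the 9 oligodendrocyte genes went with a called fall of 5 of 9 neuron, 7 of 7 red blood cell and 1 of 10 astrocyte markers. Among these neuron markers, the groups overlapped for *Snap25* and *Neurod1*. No microglia, pericyte, fibroblast or endothelial marker had a called fall. The summed neuron levels of the groups overlapped, but *Nrgn*, which was not called, made up a large part of them. The part of other cells in the result was not tested. Schwann cells of nerve roots use *Sox10*, *Mbp*, *Mag* and *Cnp* as well. Of their own markers, *Cdh19* and *Pmp2* had at most 5 and 3 counts in any library.

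By library, genes most like the mean of the 5 myelin genes, after group means were subtracted, included *Ugt8a* (Pearson's r = 0.96 over 8 libraries, among 14033 genes), *D630045J12Rik* (0.94), *Nfasc* (0.93) and *Tagln3* (0.92). Of these, *Nfasc*, which encodes neurofascin of the axon and the glial loops beside the node, had a log2 fold change of -2.63 (adjusted p = 3.80e-04, same edgeR test), and *D630045J12Rik* had one of 0.93. The genes most like the 4 factors were *Gm29994* (r = 0.98), *Ank1* (0.97), *Gm24119* (0.97), *Nsun3* (0.97) and *Arhgap33* (0.96), none of which is on the lists of the lineage. These are the highest of many values over few libraries and are given as a description.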

How the data were processed

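Poly(A) RNA of 8 EC preparations was sequenced, 1 library per pup. The authors used Trimmomatic for trimming and STAR for mapping to GRCm38, and deposited unnormalized read counts for 49315 genes per library. Which program counted, with which annotation, and how strand and reads with several hits were treated is not given in the sources used here. A second deposited set, counts divided by DESeq2 size factors, holds the same libraries and was not used.

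Groups and replicate numbers came from the sample titles. Of the 49315 identifiers 49056 matched a symbol in GENCODE vM21. Positions and lengths were read from the count files. The analysis ran in R 4.3.3, with edgeR 4.0.16 for the tests (TMM, filterByExpr with a minimum count of 10, glmQLFit and glmQLFTest without covariates, Benjamini-Hochberg adjustment over 16887 genes). Calls needed an adjusted p under 0.05 and a log2 fold change above 1 in size, as in the study. The p-values measure the spread between these pups. Standard errors are the log2 fold change divided by the root of the quasi-F statistic. Mean log2 CPM used a prior count of 2. On simulated counts of 16887 genes, 198 of 200 changed genes were called, with 2 false calls. These figures hold for those counts only. For the libraries of the pups, the share of false calls and the share of changed genes missed was not tested. Within a group, libraries differed by more than counting noise (chi-square per degree of freedom from 7.29 to 41.8 over 12 pairs), so each counted once. An exact binomial interval for counting error is given for *Nkx2-2*, the gene with fewest counts.

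The 9 genes and the gene lists were chosen with earlier results of these data known. The other genes named are, per list of the lineage and of Schwann cells, up to 5 called genes of largest change and the 2 of highest RPKM, and per list of another cell type the 2 of highest RPKM. Genes among the 5 most like each class were also named. A few genes that these rules pick are not reported here. Alternatives were DESeq2 1.42.0, other normalizations and filters, the replicate number or label prefix as a block, each library left out, and other definitions of the class difference. Values within a label prefix and the class difference without *Cnp* were added after the data were seen.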

Additional observations from a re-analysis of the deposited data

Results flagged for a closer look

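Within each group of 4 libraries, the gap of the highest or lowest library to its neighbour was set against the group's range (Dixon's 95% limit). Of 116 groups examined 5 passed the limit, and chance passes about 1 group in 20. Mutant replicate 2 stood above the other mutant libraries for *Mobp* (7.60 CPM against 3.10 to 3.67), for *Olig1* (2.16 CPM against 1.07 to 1.16) and for the sum of the 5 myelin genes (57.8 CPM against 38.3 to 40.0). Without it the log2 fold change was -2.56 for *Mobp* and -3.03 for *Olig1*. Wild type replicate 3 stood above the other wild-type libraries for *Pcdh15* (3.38 CPM against 1.20 to 1.46), whose log2 fold change without it was -1.98. Mutant replicate 1 stood below the other mutant libraries for *Stmn2* (4.18 CPM against 12.2 to 13.9), and without it *Stmn2* was at -0.92 and no longer called.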

How the results depend on the processing

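With other tools, normalizations, filters, blocks and left-out libraries, 1789 to 2849 genes were called in place of 2356, and 7504 had an adjusted p under 0.05 without a limit on the fold change. All 161 values of the 9 genes under alternatives were negative. They include 27 values within a label prefix, which have no test. In each fit with a test, 8 or 9 of the 9 genes were called lower. *Nkx2-2* left the test with a mean CPM of at least 1. *Cnp* fell short of the limit of 1 with the replicate block (-0.99, 2431 genes called in all), with a block for the label prefix (-0.99, 2456 genes called), and without mutant replicate 3 or 4 or wild type replicate 1 or 3 (range over left-out libraries -1.21 to -0.90). The numbers were not treated as pairs. Deviations from the group means correlated at 0.20, 0.21, 0.29 and 0.02 in the 4 pairs, of which the last is under 0.1, and 2 of 4 mutant and 1 of 4 wild-type libraries correlated best with their own number.

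The class difference kept its direction in each alternative. It was 0.66 without *Cnp*, where the groups overlapped, 0.54 within the prefix of replicates 1 and 2 and 1.57 within that of replicate 4. Of 522 values of other named genes, 507 kept their sign and their side of the limits, 1 lost its call (*Stmn2*), 5 gained one (*Apod* with 3 settings, *Egr2* without mutant replicate 3, *C1qa* without wild type replicate 3) and 9 turned in sign, of 3 genes that were not called. Over left-out libraries these ran from -0.16 to 0.21 for *Cspg4* (-0.010 without TMM), from -0.0071 to 0.24 for *Nrgn* and from -0.28 to 0.13 for *Vtn*. Depth limits *Nkx2-2*, whose 6 mutant counts allow 2.62% to 16.6% of the wild-type level.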

Other observations

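The Schwann cell list held genes that these preparations carried at higher levels than its defining markers. Of 8 genes 5 were tested, and 2 fell and 1 rose. *Sox2*, which neural progenitors share, had 2.67, 2.18, 3.76 and 2.13 CPM in wild-type libraries 1 to 4 and 0.341, 0.559, 0.485 and 0.968 in mutant libraries, and fell by 2.16 on the log2 scale (adjusted p = 5.04e-04, Benjamini-Hochberg adjusted, edgeR test). *Dhh*, which encodes the ligand Desert hedgehog, had 19.6, 18.9, 13.7 and 21.1 CPM in wild-type and 3.88, 9.46, 9.26 and 6.51 in mutant libraries, and fell by 1.33 on the log2 scale (adjusted p = 0.00174, same edgeR test). *Prx*, which encodes periaxin, rose from 15.3, 17.4, 15.7 and 13.3 CPM to 34.4, 33.3, 23.5 and 42.6 CPM (log2 fold change 1.12, adjusted p = 3.71e-04, same edgeR test). *Egr2*, a factor of myelinating Schwann cells and an immediate early gene elsewhere, had a log2 fold change of -0.79 (adjusted p = 0.0129, same edgeR test) and was not called.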
